A study of Gallus gallus with 8 samples.

Results

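The regions described here are stretches of the chick genome where the transcription factors Otx2 and Oc1 each left 1 peak at each of 2 digestion times, but where the peaks of the 2 factors reached their highest point more than 75 bases apart. They were profiled by CUT&RUN, in which an antibody tethers a nuclease to its target on chromatin and the DNA cut out around that target is sequenced. Dissociated retina of wild-type chick at stage E5, a mixture of the developing cells of that tissue, was treated with an antibody against Otx2 or Oc1, and digestion was stopped at 30 or 25 min. Each antibody and time has 1 library, and a measurement is repeated only across the 2 times. No p-values were computed, and each interval below covers counting error over regions and not the spread between preparations. The 4 H3K27me3 and IgG libraries of the series were not analysed here.

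Otx2 is a homeodomain factor needed for the photoreceptor fate, and Oc1 is a Onecut factor, with a cut domain beside its homeodomain, known for roles in early cone photoreceptors and horizontal cells. In the developing chick and mouse retina they are known to act together on a cis-regulatory element of the thyroid hormone receptor gene Thrb, which is active in progenitors that give rise to these cells. The summit is the base at which most sequenced fragments overlap in a peak. It is commonly read as the position of the antibody target, with a precision that depends on the number of fragments under it.

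Peaks of the 4 lists that overlapped by at least 1 base were joined, which gave 22265 regions without chromosome M. A peak of all 4 lists was present in 2298 of them, and 1976 had exactly 1 peak in each list. For each of these, the summits of the 2 Otx2 peaks were averaged, likewise those of the 2 Oc1 peaks. The 579 regions where these means lay more than 75 bases apart are called displaced, and the other 1397 coincident. The displaced regions made up 29.3% of the 1976 (Wilson 95% interval 27.3 to 31.3%). This share follows from the choice of regions and is a description. Requiring peaks in 3 lists only, by leaving out 1 library, gave 1096 displaced regions without Otx2 at 30 min, 932 without Otx2 at 25 min, 869 without Oc1 at 30 min and 974 without Oc1 at 25 min. These were 34.4 to 37.6% of the regions with exactly 1 peak in each of the 3 lists. The antibody of the library left out then had a single summit in place of a mean. These shares are therefore not directly comparable with the 29.3%. When only peaks with −log10 q of at least 5 were kept and joined anew, 262 of 937 regions were displaced (28.0%). Weaker peaks were dropped before joining, so these 937 regions need not be a subset of the 1976. Of the 1976, 761 had a local background under 2 times the genome-wide one in each list, and 213 of these were displaced (28.0%). The coordinates are in galGal5, the build named in the submitters' processing notes, and are counted from 1. No genome or gene annotation of that build was used here, so the genes and sequences at these positions are not given.

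The libraries of Otx2 had 9044 peaks at 30 min and 11495 at 25 min, and those of Oc1 had 10664 and 9777. Read numbers at the summits were recovered from the deposited fold enrichment and p of each peak. In displaced regions the median peak had 9 summit reads in each Otx2 library, and 10 and 9 in the Oc1 libraries of 30 and 25 min. At least 1 of the 4 peaks rested on at most 5 summit reads in 33.2% of displaced regions (29.4 to 37.1%), against 25.3% of coincident regions (23.1 to 27.6%). Summits of such peaks rest on few fragments, and displaced regions held more of them. The part of read number in the separations was not tested.

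Most separations were short. Among displaced regions the median separation of the mean Otx2 and Oc1 summits was 110.5 bases, with quartiles of 90.0 and 150.75 and a highest value of 679.5 bases. Of the 579, 234 lay between 75 and 100 bases, 147 exceeded 150 bases, 68 exceeded 200 and 20 exceeded 300. The coincident regions had a median separation of 31.5 bases. No gap in the values divided the groups, since 94 displaced regions lay within 10 bases over the threshold and 124 coincident ones within 10 bases at or under it. The regions just over it, all at 75.5 bases, were on chromosome 1 from 43490698 to 43491334, on chromosome 13 from 16792433 to 16793005 and on chromosome 3 from 8574646 to 8574975. The first of those at exactly 75 bases, which counted as coincident, were on chromosome 1 from 7425454 to 7425891 and from 55064922 to 55065624, and on chromosome 10 from 15122287 to 15122709.

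The same distance was then measured between the digestion times, where no difference of target is involved. When the summits of both antibodies were averaged within each time, the 30 and 25 min means lay more than 75 bases apart in 457 of the 1976 regions, or 23.1%. Distances between times exceeded 150 bases in 86 regions, 200 bases in 33 and 300 bases in 2, against 147, 68 and 20 regions between antibodies. None exceeded 400 bases between times, against 8 between antibodies. The median was 46.5 bases (exact binomial 95% interval 43.0 to 49.0) between antibodies and 41.0 (38.5 to 43.0) between times. The distances between antibodies were thus longer than those between times by little at the middle and by more at the far end.

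**Figure D1:**
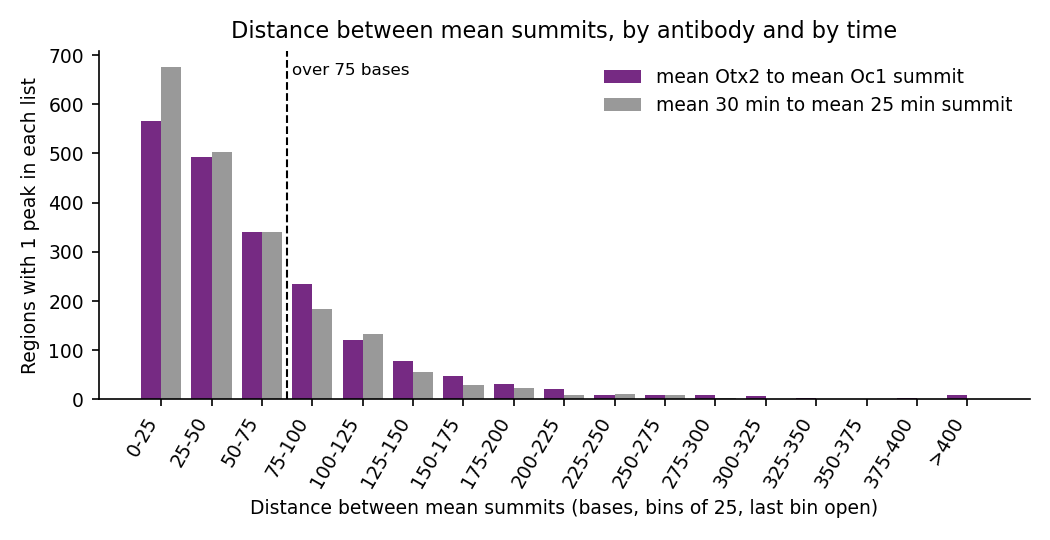
Number of regions (vertical axis, of 1976) by distance in bases between the mean Otx2 and mean Oc1 summit (purple) and between the mean 30 min and mean 25 min summit (grey). Regions right of the dashed line number 579 in purple and 457 in grey, and the 8 regions over 400 bases are purple only.

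Single libraries gave a similar picture. Over the 1976 regions, summits were more than 75 bases apart in 42.3% (40.1 to 44.5%) between Otx2 and Oc1 at 30 min and in 40.1% (37.9 to 42.3%) between Otx2 and Oc1 at 25 min. Otx2 at 30 min and Oc1 at 25 min gave 39.9%, and Otx2 at 25 min and Oc1 at 30 min gave 40.8%. Between the 2 times of Otx2 the share was 39.4% (37.3 to 41.6%), and between the 2 times of Oc1 it was 35.9% (33.8 to 38.1%). The 4 values between antibodies all lay above the 2 within an antibody, but each of their intervals overlapped that of Otx2.

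**Figure D2:**
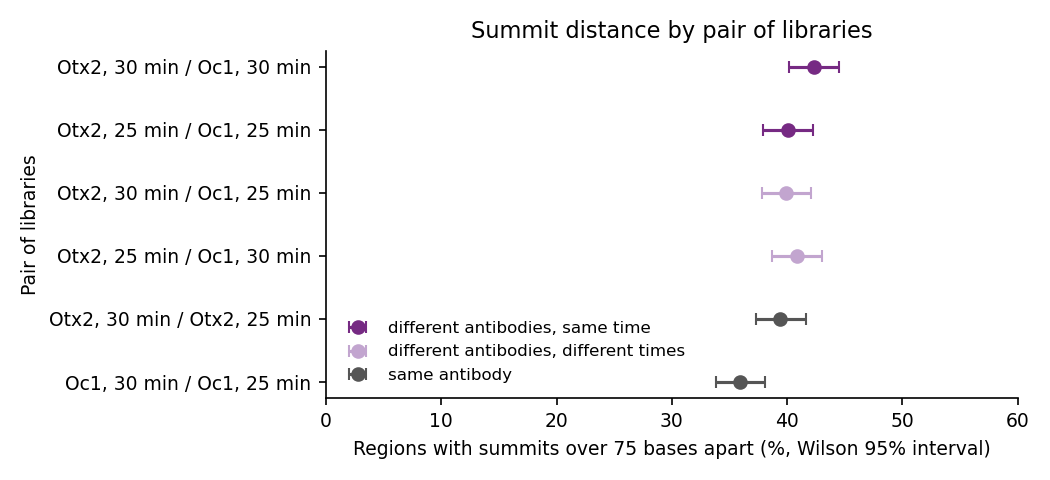
Share of the 1976 regions with summits more than 75 bases apart (horizontal axis, percent) for each pair of libraries, with Wilson 95% intervals. The 4 pairs of different antibodies lie between 39.9 and 42.3%, and the pairs of the same antibody lie at 39.4% for Otx2 and 35.9% for Oc1.

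Whether a displacement repeats can be read in libraries that did not choose it. Regions were chosen by the Otx2 and Oc1 summits of 1 time alone, and the order of the summits along the chromosome was read at the other time. Of the 836 regions with summits more than 75 bases apart at 30 min, 477 had Otx2 on the same side of Oc1 at 25 min, which is 57.1% (53.7 to 60.4%). Of the 792 regions chosen at 25 min, 454 had the same side at 30 min, which is 57.3% (53.9 to 60.7%). The share was higher for wider separations, which are part of the same regions, but the intervals overlapped. Regions over 150 bases apart kept their side in 59.9% of cases (54.2 to 65.4%, 287 regions) when chosen at 30 min and in 63.2% (57.1 to 68.8%, 258 regions) when chosen at 25 min. Regions at most 75 bases apart at the choosing time kept it in 51.9% of cases in either direction.

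The corresponding share for a shift between times was close to 50% at over 75 bases. For shifts of at most 75 bases it was 47.3% (44.5 to 50.1%) when chosen by Otx2 and 47.5% (44.7 to 50.2%) when chosen by Oc1. In all these shares, summits on the same base in the libraries read counted as not the same side, unless the choosing libraries had this too. Of regions whose Otx2 summit moved by more than 75 bases between 25 and 30 min, the Oc1 summit moved to the same side in 49.4% (45.9 to 52.9%, 779 regions). Of regions chosen by the Oc1 summit, the Otx2 summit moved to the same side in 49.3% (45.6 to 53.0%, 710 regions). At over 75 bases these intervals and those of the Otx2 and Oc1 displacement did not overlap. At over 150 bases the shares between times were 51.1% (45.1 to 57.1%, 262 regions) when chosen by Otx2 and 49.3% (42.5 to 56.1%, 205 regions) when chosen by Oc1, and both intervals overlapped that of the displacement chosen at 30 min. The rank correlation over regions was 0.140 between the signed Otx2 minus Oc1 distances at 30 and at 25 min, a weak one. Over the same 1976 regions it was -0.00533 between the signed shifts of Otx2 and of Oc1 between times. At over 75 bases the direction of a displacement thus repeated in a larger share of regions than that of a shift between times, by a modest margin. Both shares come from the same 1976 regions and the same 4 libraries, so this difference is a description and does not cover the spread between preparations. The share was lower among the regions joined only from peaks with −log10 q of at least 5. It was 54.2% (49.3 to 59.0%) when chosen at 30 min and 55.3% (50.3 to 60.2%) when chosen at 25 min. The first of these intervals includes 50%, and shifts between times were not read in these regions. A separation of more than 75 bases on the same side at the other time was found for 28.9% (26.0 to 32.1%) of regions chosen at 30 min and for 30.6% (27.4 to 33.9%) of those chosen at 25 min.

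**Figure D3:**
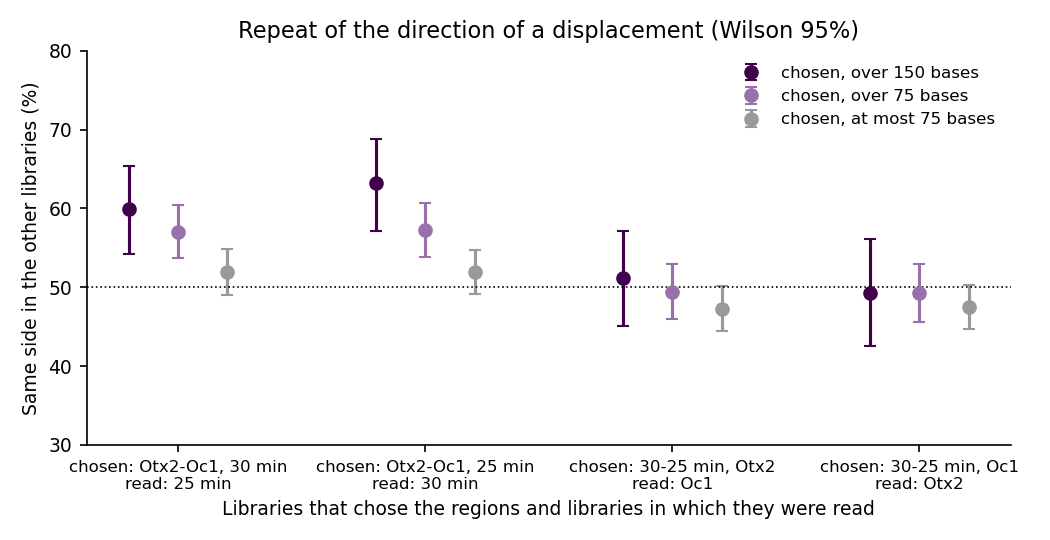
Share of regions (vertical axis, percent, starting at 30) in which the direction of a displacement was the same in libraries that did not choose it, with Wilson 95% intervals and a dotted line at 50%. Otx2 against Oc1 displacements over 75 bases (left pair of positions) repeated in 57.1 and 57.3% of regions, and shifts between times (right pair) in 49.4 and 49.3%.

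Displaced regions fell into 3 classes by how their 4 summits were arranged. In 147 of the 579, or 25.4%, each Otx2 summit was more than 75 bases from each Oc1 summit and all 4 distances pointed to the same side. This group makes up 7.44% of the 1976 regions. The corresponding arrangement by time, with each 30 min summit more than 75 bases from each 25 min summit on the same side, was found in 82 regions, or 4.15%. In 306 displaced regions the summits were ordered the same way in all 4 pairs, but at least 1 pair lay within 75 bases. In the remaining 126, or 21.8%, the summits of the antibodies interleaved. All 4 pairs were on the same side in 78.2% of displaced, 23.3% of coincident and 39.4% of all 1976 regions. The summits that chose the regions also set this order, so the difference between groups is a description.

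The classes differ in how far each factor's own summit moved between times. In the 147 clearly separated regions the median separation was 170.5 bases, and the median shift between times was 43.0 bases for Otx2 and 38.0 for Oc1. In the 126 interleaved regions the median separation was 96.0 bases, shorter than the median shifts of 149.5 bases for Otx2 and 134.5 for Oc1. The arrangement of the summits defines these classes, so the values describe them and test nothing. Over all displaced regions the median shift was 71.0 bases (64.0 to 77.0) for Otx2 and 62.0 (56.0 to 71.0) for Oc1. It was 53.0 (51.0 to 57.0) and 48.0 (45.0 to 53.0) in coincident regions. The separation exceeded both shifts in 56.1% of displaced, 13.8% of coincident and 26.2% of all 1976 regions. The same 4 summits chose the regions and give these shifts, so both comparisons are descriptions from which nothing is read.

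The 10 clearly separated regions with the highest smallest −log10 q over the 4 lists are described next and numbered in that order. Summits are given as the base of the joined region, counted from its lower coordinate, and fold is the authors' enrichment at the summit.

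Region 1 lay on chromosome 2 from 86487861 to 86489341 and had the highest smallest −log10 q of this group and the widest separation of all 579. The Otx2 summits were at bases 998 and 970 at 30 and 25 min, and the Oc1 summits at bases 263 and 346. Fold was 17.5 and 13.7 for Otx2 and 29.2 and 18.2 for Oc1, with 22 and 18 summit reads for Otx2 and 34 and 36 for Oc1. At each time the Otx2 peak lay wholly inside the Oc1 peak, which reached further at the higher coordinate. The peaks were 1075 and 1077 bases wide for Otx2 and 1464 and 1303 for Oc1. The means of the peak centres were displaced to the other side than the summits, with Otx2 107.75 bases below Oc1, while its summits were 679.5 bases above.

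Region 2 lay on chromosome 21 from 2920478 to 2921293. Its Otx2 summits were at bases 299 and 349 at 30 and 25 min and its Oc1 summits at bases 447 and 474, with folds of 11.9 and 15.2 for Otx2 and 20.7 and 16.8 for Oc1. Region 3 lay on chromosome 12 from 18190356 to 18191132. Here Otx2 was at the higher coordinate, at bases 423 and 446, with Oc1 at bases 280 and 335, and folds were 17.5 and 12.7 for Otx2 and 10.1 and 15.2 for Oc1. In both regions the mean separation, 136.5 and 127.0 bases, was more than 2 times the larger shift between times, which was 50 and 55 bases.

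Region 4, on chromosome 4 from 57295286 to 57295745, was the narrowest of the 10 at 460 bases and had the most repeatable pair of summits. Otx2 was at bases 214 and 220 and Oc1 at bases 307 and 297, so the shifts between times were 6 and 10 bases against a separation of 85.0. Its folds were 13.4 and 13.0 for Otx2 and 9.61 and 19.2 for Oc1. Region 5, on chromosome 1 from 5725189 to 5726404, had Otx2 at bases 367 and 278 and Oc1 at bases 824 and 887, a separation of 533.0 bases, with 13 summit reads in each Otx2 library and 22 in each Oc1 library.

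In regions 6, 7 and 9 the Oc1 summits were nearly fixed and the Otx2 summits moved by 95, 108 and 100 bases. Region 6, on chromosome Z from 79183013 to 79183846, had Otx2 at bases 294 and 389 and Oc1 at bases 470 and 480. Region 7, on chromosome 10 from 12630758 to 12631536, had Otx2 at bases 253 and 361 and Oc1 at bases 460 and 456. Region 9, on chromosome 9 from 17893419 to 17894080, had Otx2 at bases 541 and 441 and Oc1 at bases 324 and 334. The nearest pair of Otx2 and Oc1 summits was 81, 95 and 107 bases apart in these regions.

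Region 8 lay on chromosome 12 from 10259175 to 10259901 and region 10 on chromosome 3 from 99963600 to 99964461. In region 8 Otx2 was at bases 315 and 351 and Oc1 at bases 545 and 555, with folds between 9.88 and 11.2 in the 4 libraries. In region 10 Otx2 was at bases 255 and 309 and Oc1 at bases 698 and 696, with folds between 9.21 and 13.4. These 2 regions were the ones of the 10 whose peaks as a whole were displaced most, with mean centres of Otx2 185.0 and 216.0 bases below those of Oc1. In 7 of the 10 regions Otx2 lay at the lower coordinate, and no strand was assigned to any of them.

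**Figure D4:**
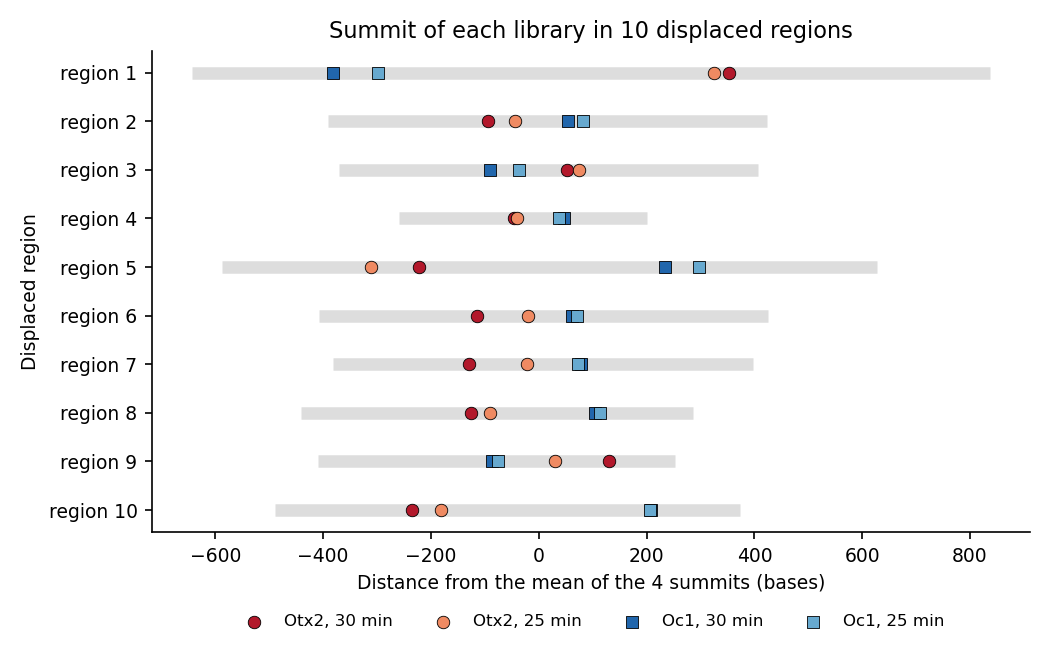
Summit of each library (points) in regions 1 to 10, as distance in bases from the mean of the 4 summits, with the joined region as a grey bar. Otx2 (circles) and Oc1 (squares) do not interleave in any of the 10, as their choice requires, and the separation runs up to 679.5 bases in region 1.

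The 5 widest separations among all displaced regions include regions 1 and 5. The others had a lower smallest −log10 q over the 4 lists, at 8.76, 5.76 and 5.26 against 20.7 and 13.9 in regions 1 and 5. On chromosome 10 from 1184164 to 1185224, Otx2 was at bases 96 and 325 and Oc1 at bases 801 and 880, 630.0 bases apart, with 13 and 8 summit reads for Otx2 and 9 and 11 for Oc1. On chromosome 22 from 3871208 to 3872031, Otx2 was at bases 637 and 626 and Oc1 at bases 215 and 138, with 8 and 6 summit reads for Otx2 and 12 and 13 for Oc1. On chromosome 15 from 6743363 to 6744284, Otx2 was at bases 625 and 755 and Oc1 at bases 243 and 259, with 8 reads in each Otx2 library and 16 and 19 for Oc1. In all 5 every Otx2 summit was at least 366 bases from every Oc1 summit.

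In other members the summit of 1 library lay far from the remaining ones. The largest shift between times was on chromosome 17 from 9022806 to 9023906, where the Otx2 summit was at base 288 at 30 min and at base 877 at 25 min, while Oc1 was at bases 294 and 244. At 30 min the factors were thus 6 bases apart. On chromosome 20 from 2251506 to 2252262 the Oc1 summit was at base 610 at 30 min and at base 25 at 25 min, with Otx2 at bases 163 and 225. On chromosome 8 from 20765361 to 20766434 the Otx2 summit was at bases 856 and 285, with Oc1 at bases 426 and 442. In all 3 regions Otx2 lay on opposite sides of Oc1 at the 2 times.

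The members with the highest fold were looked up after the values were seen. The peak with the highest fold of both Oc1 lists falls in a displaced region, on chromosome 2 from 17447365 to 17448517. Its Oc1 peaks had folds of 318 and 305 at 30 and 25 min, with 386 and 368 summit reads, against folds of 6.94 and 8.36 with 8 and 9 reads for Otx2. The Otx2 summits were at bases 436 and 543 and the Oc1 summits at bases 560 and 675. The mean separation of 128.0 bases was close to the shifts between times, 107 bases for Otx2 and 115 for Oc1. The member with the highest Otx2 fold, 28.0 at 25 min, was on chromosome 1 from 176985978 to 176986799. At 30 min its Otx2 fold was 10.2, while the highest among displaced regions was 18.7. Its Oc1 peaks had folds of 6.77 and 17.1 at 30 and 25 min. The local background there was 9.27 times the genome-wide one for Otx2 and 9.92 times for Oc1 at 30 min. At 25 min it was 1.17 and 2.13 times. The summits there were 115.0 bases apart on average, with shifts of 73 bases for Otx2 and 119 for Oc1.

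Peak strength was compared between displaced and coincident regions, which the choice of regions did not use. In displaced regions the median fold of Otx2 was 6.94 (exact binomial 95% interval 6.42 to 7.01) at 30 min and 7.39 (6.78 to 7.60) at 25 min. In coincident regions it was 7.26 (7.01 to 7.63) and 7.60 (7.39 to 7.67). For Oc1 it was 7.62 (7.52 to 8.23) at 30 min and 7.32 (6.89 to 7.58) at 25 min in displaced regions, against 8.09 (7.62 to 8.35) and 7.88 (7.58 to 8.07) in coincident ones. Medians over all 1976 regions were 7.09 and 7.53 for Otx2 and 7.91 and 7.58 for Oc1 at 30 and 25 min. The displaced regions had the lower median in each of the 4 libraries, with intervals that overlapped or met.

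Ranked within its own list, a peak of the median displaced region ranked at 61.6% and 74.1% of the Otx2 lists of 30 and 25 min, and at 75.5% and 71.1% of the Oc1 lists. The ranks in coincident regions were 70.5% and 77.8% for Otx2, and 77.3% and 76.3% for Oc1. The medians over all 1976 regions were 69.0% and 75.6% for Otx2, and 76.3% and 74.4% for Oc1. Displaced regions thus ranked above the middle of every list, as did all the regions together. Their median was lower than that of coincident ones in each list, with intervals that overlapped or met. The fold of the same displaced region had a rank correlation of 0.475 between the 2 Otx2 libraries and 0.565 between the 2 Oc1 libraries, over 579 regions. Between an Otx2 and an Oc1 library the 4 values were between 0.0931 and 0.198. The coincident regions had values of 0.440 and 0.545 within an antibody and from 0.0961 to 0.221 between antibodies.

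The local background did not separate the groups. It was at least 2 times the genome-wide one in 17.1% and 39.4% of displaced regions for Otx2 at 30 and 25 min, and in 25.2% and 43.0% for Oc1. The coincident regions had 19.2% and 39.1% for Otx2 and 26.1% and 44.7% for Oc1, and each pair of intervals overlapped.

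Displaced regions were wider. The median width of the joined region was 591 bases (572 to 608) in displaced regions and 515 (505 to 524) in coincident ones. By library, the median peak of a displaced region was 386 bases wide (361 to 403) for Otx2 at 25 min, and for Oc1 it was 441 (423 to 459) at 30 min and 403 (387 to 421) at 25 min. The coincident values were 358 (348 to 366), 403 (396 to 411) and 378 (368 to 388). For Otx2 at 30 min, the library with the shortest peaks, the median was 253 bases (237 to 273) in displaced regions and 259 (250 to 265) in coincident ones. By library, the intervals of the groups overlapped except for Oc1 at 30 min.

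Over all 1976 regions the share that was displaced rose with the width of the region. The regions were divided by width into 4 groups of 494. The share was 15.6% (12.7 to 19.0%) in the narrowest group, 27.9% in the next, 32.0% in the next and 41.7% (37.4 to 46.1%) in the widest. The distances within an antibody rose as well. The Otx2 summit moved by more than 75 bases between times in 26.5% of the narrowest group and in 49.8% of the widest, and the Oc1 summit in 25.9% and 45.7%. The share with the mean 30 and 25 min summits over 75 bases apart was 11.7% and 34.6%. The clearly separated regions, with all 4 pairs over 75 bases on the same side, made up 3.24% (2.003 to 5.20%) of the narrowest group and 13.97% (11.2 to 17.3%) of the widest. The arrangement by time made up 1.62% (0.823 to 3.16%) and 5.47% (3.78 to 7.84%). In the groups between these, the clearly separated regions made up 6.28% and 6.28%, and the arrangement by time 3.24% and 6.28%. The arrangement by time was thus lower in the widest group than in the one before it. The width of a region bounds all of these distances, so these shares are descriptions. The part of width in the displacement was not tested.

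**Figure D5:**
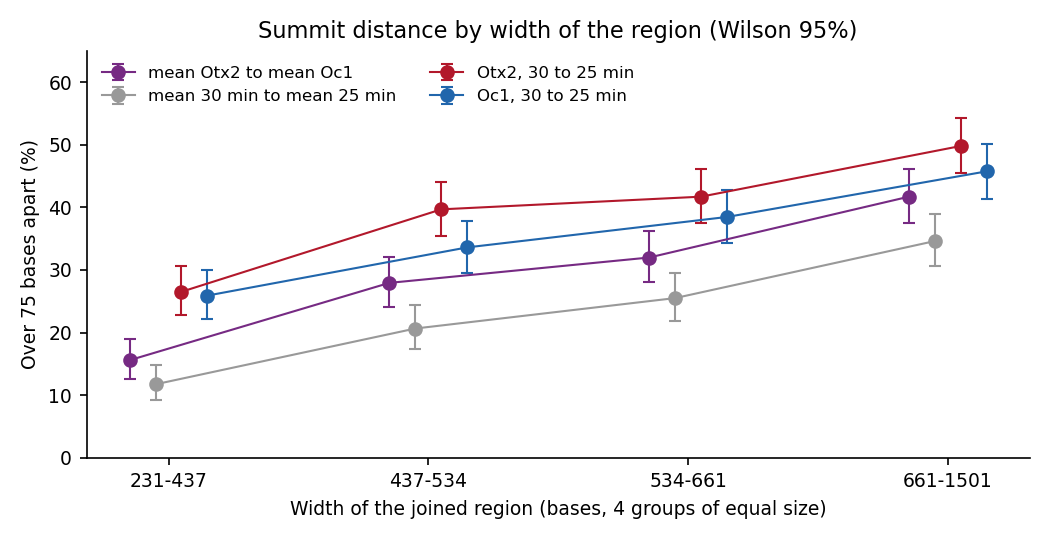
Share of regions with summits more than 75 bases apart (vertical axis, percent, Wilson 95% intervals) in 4 groups of equal size by width. All 4 lines rise, with the share of displaced regions (purple) at 15.6% in the narrowest and 41.7% in the widest group, above the line for time means (grey) and below those for single antibodies between times.

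By peak strength the share varied less. In 4 groups of equal size by the smallest −log10 q over the 4 lists, from weakest to strongest, 32.4%, 32.8%, 25.3% and 26.7% of regions were displaced. The strongest group still had an Otx2 shift of more than 75 bases between times in 37.4% of regions (33.3 to 41.8%) and an Oc1 shift in 34.6% (30.6 to 38.9%). In that group, 6.28% (4.46 to 8.77%) were clearly separated by antibody and 4.45% (2.96 to 6.65%) by time.

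The ends of the peaks entered the choice of regions only through overlap, and the peak centres mostly lay on the side of the summits. In 87.4% of displaced regions (84.4 to 89.9%) the mean centre of the Otx2 peaks lay on the same side of that of the Oc1 peaks as the summits did, against 66.8% of coincident regions (64.3 to 69.2%). The centres were more than 75 bases apart in 49.6% (45.5 to 53.6%) of displaced and 16.8% (14.95 to 18.9%) of coincident regions. Over all 1976 regions these 2 shares were 72.8% and 26.4%. In 47.8% of displaced regions the centres were more than 75 bases apart on the side of the summits. Summit and ends come from the same fragments, so they are not independent measurements.

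In most displaced regions each summit still fell within the peak of the other antibody. The distance between the summits chose the groups and also enters these shares, so the differences between groups are descriptions. At 30 min, each summit fell within the peak of the other antibody in 55.1% of displaced regions (51.0 to 59.1%), against 85.3% of coincident ones. At 25 min the shares were 65.8% (61.8 to 69.6%) and 91.1%. Neither summit fell within the other antibody's peak in 8.64% of displaced regions at 30 min and in 8.81% at 25 min, against 1.57% and 0.859% of coincident ones. At 30 min the Oc1 peak held the Otx2 summit in 86.4% of displaced regions, while the Otx2 peak held the Oc1 summit in 60.1%. At 25 min these shares were 78.9% and 78.1%. Over all 1976 regions they were 93.4% and 79.4% at 30 min, and 90.8% and 89.6% at 25 min. The Otx2 peaks at 30 min were also the shortest. The whole Otx2 peak lay inside the Oc1 peak in 50.6% of displaced regions at 30 min and in 26.4% at 25 min. Over all 1976 regions these shares were 55.3% and 30.6%, so such nesting is not particular to displaced regions.

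Displaced regions were spread over the genome like the other shared regions. The chick genome has a few large macrochromosomes and many small, gene-rich microchromosomes. Chromosomes 1 to 5 held 49.9% of displaced regions (45.9 to 53.97%), chromosomes 6 to 10 held 15.2% (12.5 to 18.4%), numbered chromosomes from 11 up held 29.9% (26.3 to 33.7%) and chromosome Z held 5.01% (3.51 to 7.10%). In coincident regions the shares were 46.3%, 18.1%, 29.4% and 6.16%, and in all 22265 regions they were 49.1%, 17.0%, 28.9% and 4.95%. The intervals of displaced and coincident regions overlapped in every class. By chromosome the share displaced was lowest on chromosome 10, at 10 of 67 regions, and on chromosome 2, which held most, it was 80 of 241.

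Otx2 lay at the higher coordinate in 296 of the 579 displaced regions, or 51.1% (47.1 to 55.2%), so no direction along the chromosome prevailed. Another region with peaks in all 4 lists lay within 10 kb of 25.9% of displaced regions (22.5 to 29.6%) and of 25.6% of coincident ones (23.4 to 28.0%). Only 22 pairs of neighbouring displaced regions were less than 10 kb apart, and the median gap between neighbours on a chromosome was 867 kb.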

How the data were processed

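The authors deposited 1 narrow peak list per library, in galGal5, and the submitters' processing notes name Bowtie2, SAMtools, deepTools and MACS2. Versions, roles, settings, the control and the treatment of duplicate reads are not given in the sources used here. The deposited columns hold the fold enrichment (a ratio), −log10 of p and q, and the summit offset. In 100% of rows the deposited score equalled the whole part of 10 times −log10 q. Each list gives 1 summit per peak. Both the fold and the −log10 q printed are the authors'.

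A summit is the peak start plus its offset. Shares carry Wilson 95% intervals, and medians exact binomial 95% intervals. Summit reads and background were recovered from fold and p, as the smallest whole number of reads that gave −log10 p within 0.002, or within 0.01% of it where that is more. This succeeded for 100% of peaks, with reads scaled by 0.845 for Otx2 at 30 min and by 1 elsewhere. Read numbers are before scaling. The background held by the lowest 1% of peaks was taken as genome-wide. On simulated lists, 132 of 132 planted displaced regions were found and 99.7% of read numbers were returned in either layout. The planted displacement had a fixed size over the threshold, with less scatter of summits than between the times here. Simulated read numbers spanned a narrower range than those of the data. This was a check of the code and not of the precision of the summits. Depths came to between 0.967 and 1.19 reads per kb of the genome size used in calling. Reads extend a peak to at least its list's smallest width, which was 107 and 157 bases for Otx2 at 30 and 25 min, and 200 and 194 bases for Oc1.

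Named regions follow fixed rules: the 10 strongest clearly separated, the 5 widest, 3 either side of the threshold and the 3 with the largest shift. The members, lists and rules were chosen with earlier results of these data known, and the reading of the direction at the other time was chosen after seeing the data. Genome sequence, genes and motifs, planned where a genome was at hand, were not analysed here. Python 3.11.15, pandas 2.3.3, scipy 1.17.1 and matplotlib 3.10.9 were used.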

Additional observations from a re-analysis of the deposited data

Results flagged for a closer look

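In 3 displaced regions picked for a large shift between times, Otx2 minus Oc1 pointed to opposite sides at the 2 times, and the difference was not tested. On chromosome 17 from 9022806 to 9023906 it was -6 bases at 30 min and 633 bases at 25 min. On chromosome 20 from 2251506 to 2252262 it was -447 bases at 30 min and 200 bases at 25 min. On chromosome 8 from 20765361 to 20766434 it was 430 bases at 30 min and -157 bases at 25 min.

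The median width of Otx2 peaks in displaced regions minus that in coincident regions was -6 bases at 30 min and 28 bases at 25 min. Whether the times differ in this was not tested.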

How the results depend on the processing

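With distances over 50, 100 and 150 bases, 919, 345 and 147 regions were displaced (46.5, 17.5 and 7.44%), with all 4 pairs on the same side in 66.7, 83.8 and 90.5% and centres on the side of the summits in 83.1, 91.3 and 93.2%. At 75 bases these shares were 78.2 and 87.4%, and over all 1976 regions 39.4 and 72.8%. The summits that choose the regions also set the side, so the rise with distance is a description. Shifts between times beyond these distances were found in 55.3, 26.8 and 13.3% of regions for Otx2 and in 51.0, 23.9 and 10.4% for Oc1. At 150 bases, mean peak widths had medians of 373 bases for Otx2 and 504 for Oc1, and 3.40% of displaced regions were on Z. Of regions chosen by the summits of 1 time alone at over 150 bases, 59.9% (chosen at 30 min) and 63.2% (at 25 min) kept their side. With peak centres, 26.4% were displaced, shifts over 75 bases fell to 32.2% for Otx2 and 28.8% for Oc1, and the direction repeated in 62.9% (chosen at 30 min) and 62.8% (at 25 min). With regions of 1 or more peaks in each list and the strongest peak taken, 33.8% were displaced, Otx2 shifts made up 42.4% and the Oc1 width was 445.25 bases. With only peaks of −log10 q of at least 5 joined, 262 of 937 regions were displaced (28.0%), and centres followed the summits in 82.1%. Folds were then 8.50 for Otx2 and 9.66 for Oc1 and widths 400 and 517.75 bases. With at least 6 summit reads, 27.04% were displaced, with folds of 7.65 and 8.88 and widths of 361.5 and 482 bases. With a background under 2 times the genome-wide one, 213 of 761 regions were displaced (28.0%). They had an Oc1 fold of 7.09, widths of 298 and 361.5 bases and 33.8% on microchromosomes. With summits of 30 min only, 42.3% were displaced, with centres following in 82.2% and an Otx2 width of 263 bases. With 25 min only, 40.1% were displaced, with centres following in 81.9%, an Oc1 fold of 7.26 and widths of 381 and 393.5 bases. The main folds were 7.05 and 7.66 and widths 317 and 422.5 bases. Folds and widths here are means of the libraries of an antibody, and the cause of their changes was not tested.

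Leaving out each library in turn needs a peak in 3 lists only and gave 869 to 1096 displaced regions (34.4 to 37.6%), with the remaining pairs on the same side in 94.0 to 96.1% and centres following in 83.9 to 86.0%. The antibody of the library left out then has a single summit in place of a mean. Fewer pairs remain and they share a summit, so the choice of regions nearly fixes their side. That share is not comparable with the 78.2% for all 4 pairs in the main setting, and nothing is read from it. The number was 1096 without Otx2 at 30 min, 932 without Otx2 at 25 min, 869 without Oc1 at 30 min and 974 without Oc1 at 25 min. On chromosome Z lay 4.72 to 6.22% and on microchromosomes 26.7 to 29.9%. Folds were 6.43 to 7.21 for Otx2 and 6.67 to 7.85 for Oc1, and widths 240 to 341.5 and 366 to 421.75 bases. Of the values not from leaving out a library, 89 of 143 stayed close to the main value, within its interval or, for the number of regions, within 1.5 times, and so did 21 of 44 when a library was left out. The alternatives for the repeat of the direction were chosen after seeing the data. It was lowest with −log10 q of at least 5, at 54.2% chosen at 30 min and 55.3% at 25 min, and next lowest with at least 6 summit reads, at 55.3% (51.2 to 59.2%) and 56.1% (52.0 to 60.2%). The direction of the centres has no value when centres replace summits, and shifts and the order of all pairs have none with a single time. Otx2 and Oc1 can be compared within each time, but no paired test was run, since each antibody and time has 1 library. The number in the titles is the digestion time, and distances between Otx2 and Oc1 within each time stand in the report as descriptions. Displaced regions had a median of 9 or 10 summit reads per library, and what this does to the positions was not tested.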
